A study of Mus musculus with 13 samples.

Results

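A set of 10 genes of the mast cell and myeloid lineages were examined for the binding of 3 proteins in Ba/F3 cells, a mouse pro-B line that needs interleukin 3 (IL3) to grow. The genes are Kit, Ms4a2, Fcer1g, Gpr84, Cpa3, Hdc, Mpo, Mitf, Cebpa and Cebpb, 10 of the 21887 protein-coding genes in the annotation. Every region called inside a gene's bounds or within 50 kb of them was counted. The bounds are those of the mouse assembly GRCm38.p6, which has the coordinates of the authors' mm10. The 12 libraries had 161 such regions among 62686, and the 6 lists called on pooled libraries had 148 among 59137.

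All groups were Ba/F3 cells kept in medium with 1 ng/mL IL3, then cultured without it for 6 h (without IL3), or for 6 h and then with 10 ng/mL IL3 for 30 min (with IL3). DNA bound by STAT5A, LSD1 or HDAC3 was collected with an antibody and sequenced (ChIP-seq), with 2 biological replicates per antibody and condition. A single cell line carries all results, and no library from primary mast or myeloid cells was analysed here. ChIP-seq shows where a protein is found on DNA and not whether a gene is expressed, so the pro-B label cannot be checked against expressed markers.

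Mast cells are tissue-resident cells that store histamine and proteases in granules and release them when IgE bound to the high-affinity IgE receptor is cross-linked. IL3 supports the growth of mast cells and of myeloid progenitors. Its receptor activates JAK kinases, which phosphorylate STAT5 proteins, and these then bind DNA. LSD1 removes methyl groups from histones as part of CoREST complexes. HDAC3 removes acetyl groups from histones within NCoR complexes. LSD1 is known in blood cells for its work with the repressors GFI1 and GFI1B, and C/EBPα and C/EBPβ are factors that drive myeloid differentiation.

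The libraries differed in the number of regions called. The STAT5A lists held 354 and 4513 regions without IL3 (replicates 1 and 2) and 13574 and 6288 with it. For LSD1 the lengths were 1007 and 15786 before IL3 addition and 6479 and 11570 after it, and for HDAC3 they were 1632 and 535, then 683 and 265. STAT5A without IL3 replicate 1, LSD1 without IL3 replicate 1 and HDAC3 with IL3 replicate 2 were the shortest lists of their proteins, and had 1, 3 and 1 regions near the 10 genes. In HDAC3 with IL3 replicate 2, 234 of 265 regions were on assembled chromosomes. Read depth is unknown, so whether a region missing from these lists was unbound or below detection cannot be told apart. Each region carries a score deposited by the authors, and ranks are places by that score in a list, counted from the highest. Scores and ranks of different lists are printed side by side as each list's own values and show no change between conditions.

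The number of regions differed widely between the genes, from 0 to 35 in the replicate lists. Kit, which encodes the receptor for stem cell factor and defines mast cells and blood progenitors, had no region in any of the 18 lists, and the nearest lay 147668 bp outside its bounds. Cpa3 had 1 region and Hdc had 5 in the replicate lists, all of LSD1, against 35 for Gpr84, 27 for Cebpb, 25 for Mitf, 22 for Mpo, 18 each for Ms4a2 and Cebpa and 10 for Fcer1g. Mitf covers 214.4 kb and so has a longer window than the others. When regions of all 18 lists that overlap by 1 bp or more were joined, 85 sites resulted, of which 20 were called for STAT5A alone, 32 for LSD1 alone and 3 for HDAC3 alone. STAT5A and LSD1 met at 14 sites, LSD1 and HDAC3 at 6, and all 3 proteins at 10. Thus 55 of the 85 sites had 1 protein, 20 had 2 and 10 had 3, and of the sites over the whole genome 72.1% had 1, 22.0% had 2 and 5.90% had 3.

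**Figure D1:**
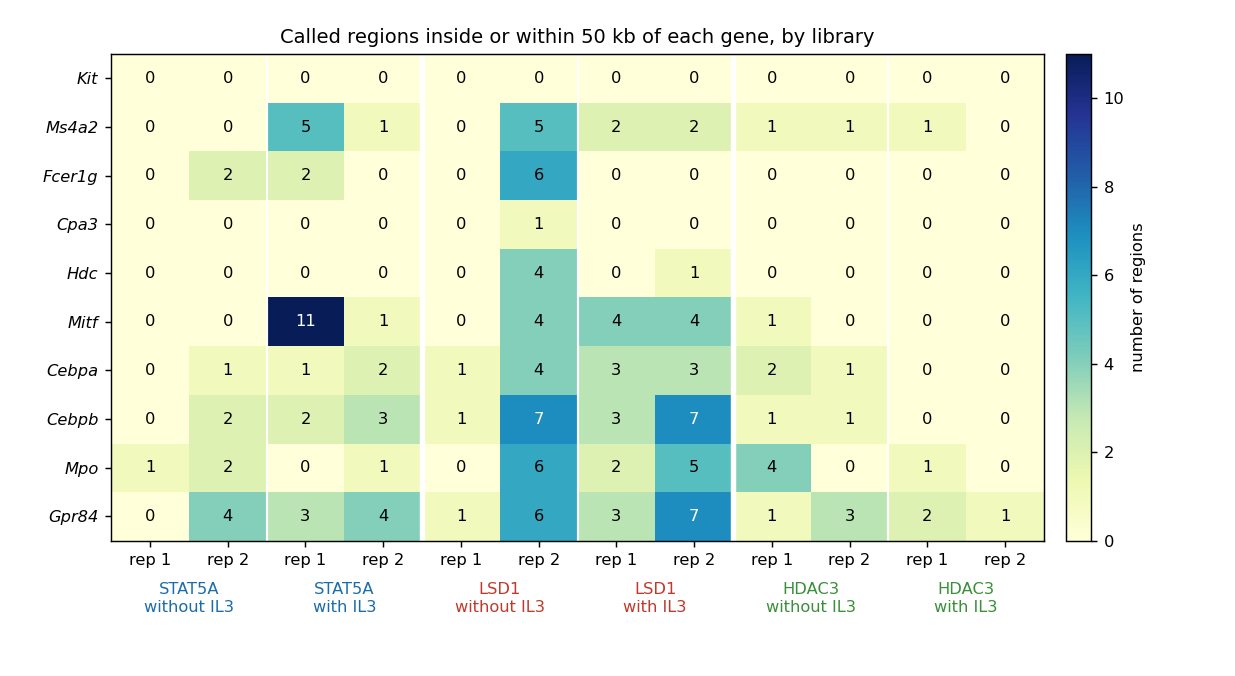
Number of called regions inside or within 50 kb of each gene (rows) in each of the 12 libraries (columns, 2 replicates per protein and condition), with the number printed in each cell. Kit is at 0 in every library, and Mitf reaches 11 in STAT5A with IL3 replicate 1 against 1 in replicate 2.

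Regions within 50 kb were common over the whole annotation too. In the pooled list of STAT5A with IL3, 7 of the 10 genes had a region, and 61.4% of all protein-coding genes did. Without IL3 the STAT5A list reached 6 of the 10, against 40.9% of all genes. LSD1 was called near 9 of the 10 without and 8 with IL3, where all genes gave 63.0% and 64.7%. HDAC3 was called near 6 of the 10 without IL3 (24.4% of all genes) and near 2, Mpo and Gpr84, with it (10.8%). The median number of regions per gene over the 10 was 2.5 for STAT5A with and 1 without IL3, 3.5 and 5 for LSD1, and 0 and 1 for HDAC3, while the medians over all genes were 1 and 0, 2 and 1, and 0 and 0.

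The first comparison asks at which of these genes STAT5A was called after IL3 was added back. Ms4a2 and Mitf had more STAT5A regions in both replicates with IL3 than in either without it, 2 of the 10 genes, against 18.0% of all genes. No gene of the 10 had more without IL3 in this sense, against 0.0183% of all genes. With 2 libraries against 2, the smallest two-sided exact permutation p for a gene's region number is 0.333, so no single gene can pass 0.05. Ms4a2 had 5 and 1 regions with IL3 against 0 and 0, and Mitf had 11 and 1 against 0 and 0, each with that p of 0.333. The 2 genes became 4 without replicate 1 with IL3 and 5 without replicate 2 without IL3, and 0 when each list was cut to the length of the shortest. Genes with more without IL3 numbered 1, instead of 0, without replicate 1 without IL3 or without replicate 2 with IL3.

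At the level of regions, 39 merged STAT5A regions lay near the 10 genes, of which 6 were gained, meaning that both IL3-treated replicates had the region and no deprived replicate did, against 8.72% of all STAT5A regions. None was lost, the reverse pattern, against 0.0482% of all. The 6 lay in the windows of Gpr84 (3 regions), Ms4a2, Cebpb and Mitf. A further 21 regions were called in 1 replicate with IL3 alone and 9 in 1 replicate without IL3 alone. The count of 6 became 23 without replicate 2 and 10 without replicate 1 with IL3, and the count of 0 lost regions was 8 when replicate 1 of the deprived cells was left out and 1 when their replicate 2 was. Near these genes those 2 libraries held 1 and 11 STAT5A regions.

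LSD1 had 56 merged regions near these genes, the most of the 3 proteins. No gene had more LSD1 regions in both replicates of either condition than in both of the other, against 2.25% of all genes in the direction of more with IL3 and 0.0640% in the other. Of the 56 regions, 2 were gained, near Mpo and at Cebpb, against 3.36% of all LSD1 regions, and 0 were lost, against 0.319%. The LSD1 regions with IL3 lay mostly where LSD1 was also called without it: 28 of 40 in the pooled list (70.0%, 95% Wilson interval 54.6 to 81.9, for counting error only) overlapped one without IL3, and over the whole list 52.3% did. LSD1 without IL3 replicate 1 held few regions. The gained count was 10 without replicate 2 of that group, and 9 or 6 without replicate 1 or 2 with IL3. The lost count was 22 without replicate 1 without IL3 and 1 without replicate 2 with IL3. Genes with more LSD1 with IL3 became 6 without replicate 2 of the deprived cells and 1 without replicate 1 of the treated cells. Genes with more LSD1 without IL3 became 6 without replicate 1 of the deprived cells, so the direction turned with the library left out.

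HDAC3 was called within 50 kb of both C/EBP genes without IL3 alone, and inside neither gene. The regions of the replicates lay 5.0 and 32.6 kb from the bounds of Cebpa, and 39.4 and 19.6 kb from those of Cebpb. Cebpa had 2 and 1 HDAC3 regions without IL3 and 0 and 0 with it, and Cebpb had 1 and 1 against 0 and 0 (two-sided exact permutation p 0.333 for each). They are 2 of the 10 genes, against 1.62% of all genes, and none of the 10 had more with IL3, against 0.0548%. The count of 2 became 4 without HDAC3 without IL3 replicate 2, and 0 when lists were cut to the shortest or the window was 10 kb. Of 16 merged HDAC3 regions, 1 was lost, the one beyond Cebpa described under that gene (3.58% of all HDAC3 regions were lost), and none was gained (0.0389%). The lost count became 5 without the first and 7 without the second library of deprived cells, and 2 without replicate 2 with IL3, which also took the gained count from 0 to 2. With IL3 the 2 HDAC3 libraries held 683 and 265 regions against 1632 and 535 without, and how far list length sets the difference was not tested.

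STAT5A and LSD1 often shared a place near these genes. With IL3, 16 of 28 pooled STAT5A regions overlapped LSD1 (57.1%, interval 39.1 to 73.5), against 33.4% of all STAT5A regions, and 2 of 28 overlapped HDAC3 (7.14%, 1.98 to 22.6), against 4.56%. Without IL3 it was 10 of 15 for LSD1 (66.7%, 41.7 to 84.8), against 52.5%, and 7 of 15 for HDAC3 (46.7%, 24.8 to 69.9), against 17.1%. Seen from LSD1, 16 of 40 regions with IL3 (40%) and 10 of 47 without (21.3%) overlapped STAT5A, where all LSD1 regions gave 30.4% and 15.7%. Of the HDAC3 regions, 12 of 14 without IL3 (85.7%) and 1 of 4 with it overlapped LSD1, against 69.6% and 69.0% of all HDAC3 regions. The STAT5A regions with IL3 overlapped STAT5A without IL3 in 6 of 28 (21.4%), against 10.9%, and HDAC3 in 1 of 4, against 41.1%. To leave out a library, the list of the other replicate took the place of the pooled list. Without LSD1 replicate 2, the share of STAT5A regions on LSD1 was 25% with and 20% without IL3. Without HDAC3 replicate 1 the share on HDAC3 without IL3 was 20% and with IL3 3.57%, and without STAT5A replicate 1 or 2 with IL3 it was 0% and 4.17%. STAT5A without IL3 replicate 1 taken alone has 1 region here, and it overlapped both other proteins.

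Sites at the starts of the genes were counted, with no share over all sites of the genome to set beside the count. The windows cover 1383.3 kb, and the stretches within 1 kb of a start are a small part of that. A site's centre was within 1 kb of a start in 6 of 85 cases, at Fcer1g, Hdc, Mitf, Mpo and, for 2 sites, Cebpb, and 26 of the 85 lay inside one of the 10 genes. For 44 of the 85 the member was the protein-coding gene with the nearest bound, so the other 41 lie in or nearer to another gene. Exons and introns were not analysed here. Called regions reached into the stretch from 250 bases before to 50 after the start at 3 genes. The 250 bases before the start, which show how much of each promoter the regions covered, are given here from RefSeq (build GRCm38.p6), 5′ to 3′ on the gene's strand. Bases under any called region are in capitals.
Fcer1g, chr1:171234350-171234599, minus strand: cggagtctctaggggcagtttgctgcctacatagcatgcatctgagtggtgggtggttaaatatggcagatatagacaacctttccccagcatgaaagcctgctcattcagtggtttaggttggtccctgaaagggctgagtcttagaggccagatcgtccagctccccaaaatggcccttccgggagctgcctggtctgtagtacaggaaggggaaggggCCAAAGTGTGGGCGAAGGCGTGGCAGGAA
Cebpb, chr2:167688665-167688914, plus strand: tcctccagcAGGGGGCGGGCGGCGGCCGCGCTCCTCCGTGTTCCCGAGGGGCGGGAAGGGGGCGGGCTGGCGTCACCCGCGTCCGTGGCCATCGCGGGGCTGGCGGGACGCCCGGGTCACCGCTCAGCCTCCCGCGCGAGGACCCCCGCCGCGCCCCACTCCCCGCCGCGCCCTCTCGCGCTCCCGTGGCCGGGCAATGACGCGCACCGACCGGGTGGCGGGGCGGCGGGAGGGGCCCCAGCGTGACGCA
Mpo, chr11:87793534-87793783, plus strand: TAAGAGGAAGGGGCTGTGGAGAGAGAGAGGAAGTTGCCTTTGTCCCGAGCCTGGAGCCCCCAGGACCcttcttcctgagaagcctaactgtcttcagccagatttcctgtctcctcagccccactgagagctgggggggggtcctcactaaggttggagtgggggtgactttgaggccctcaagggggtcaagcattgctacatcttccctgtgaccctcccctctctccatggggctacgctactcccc
At Cebpb 241 of the 250 bases lay under LSD1 regions, at Mpo the 67 bases farthest from the start lay under the pooled STAT5A region without IL3, with LSD1 regions without IL3 over 25 (pooled) and 30 (replicate 2) of them, and at Fcer1g the 29 bases next to the start lay under LSD1 without IL3. Motifs of 4 factor families were searched on both strands of the 300 bases. The STAT motif TTCNNNGAA is in 8.30% of all 32851 promoters of the table. The GATA factor motif AGATAA is in 11.2%. The E-box CACGTG, which MITF binds, is in 7.15%. The C/EBP motif TTGCNNAA is in 10.8%. None of the 4 was in these 3 promoters. Elsewhere among the 10 genes AGATAA matched 3 times at Ms4a2, at offsets -224, -37 and -11 from the start, and 1 time at Cpa3, at -46, and neither promoter had a region. TTGCNNAA matched at 2 of the 3 Mitf starts.

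Ms4a2 and Fcer1g encode the beta and gamma chains of the high-affinity IgE receptor. In replicate 1 and in the pooled list with IL3, the STAT5A region with the highest score of the 10 windows was in that of Ms4a2, at chr19:11659259-11659433, 35469 bp from its bounds and inside Oosp2, which encodes an oocyte secreted protein. STAT5A with IL3 scored 436.3 there in replicate 1 (rank 153 of 13574) and 80 in replicate 2 (rank 414 of 6288), and no STAT5A region was called there without IL3. The nearest STAT5A region in a replicate without IL3 was 147780 bp away. In the pooled list with IL3 the score was 284.1, rank 164 of 15546. LSD1 was at the same site in both conditions, with 91.4 in replicate 2 without IL3 (rank 496 of 15786) and 59.4 and 85.3 with IL3 (ranks 160 of 6479 and 222 of 11570). LSD1 was thus called beside STAT5A in both replicates with IL3, and without IL3 it was called in the absence of a STAT5A call. HDAC3 was not called there.

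Between Ms4a2 and that site lies Ms4a3, a gene of the same family expressed in myeloid progenitors, and 7 of the 11 sites of the window are in its body. The site at chr19:11636703-11636968 was called for all 3 proteins: STAT5A with IL3 replicate 1 (44.8), LSD1 replicate 2 without and with IL3 (51.8 and 26.6) and HDAC3 replicate 1 without and with IL3 (67.7 and 19.2). The HDAC3 ranks were 108 of 1632 without and 384 of 683 with IL3. Each protein was called there in 1 replicate of a condition at most. Inside Ms4a2 itself, the pooled LSD1 list without IL3 had a single region, at 20.3 (rank 11346 of 16890), called in neither replicate.

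Fcer1g had its 3 own sites within the gene, and the other 8 lay outside its bounds. LSD1 without IL3 replicate 2 held all 6 LSD1 regions that a replicate called in this window, and the other 3 LSD1 libraries held 0. The highest was inside Fcer1g, at 51.8 (chr1:171232023-171232205, rank 1930 of 15786). The region over the start, chr1:171234196-171234378, scored 39.6 (rank 3475). Inside Fcer1g, STAT5A scored 33.6 in replicate 1 with IL3 (rank 7119 of 13574), and no other replicate had a STAT5A region there. At Fcer1g, then, no region was called in both replicates of any group.

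Gpr84 encodes a receptor for medium-chain fatty acids found on neutrophils and macrophages. The highest-ranked LSD1 region of the 10 windows lay 2.7 kb from its bounds, 5 kb from the start in the direction of transcription, at chr15:103305294-103305538. LSD1 was called there in all 4 libraries, with scores of 362.9 and 347.4 without IL3 (ranks 6 of 1007 and 6 of 15786) and 136.2 and 306.5 with IL3 (ranks 12 of 6479 and 4 of 11570). In the pooled lists it ranked 4 of 16890 without and 6 of 17092 with IL3. STAT5A was called there in replicate 2 of both conditions, at 37.3 and 50, and ranked 215 of 5051 in the pooled list without and 5082 of 15546 with IL3. HDAC3 was called in replicate 2 without IL3 alone (33.0, rank 96 of 535). LSD1 was near the top of every list at this site, whereas STAT5A in the pooled list with IL3 was in the upper 32.7%.

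At the far edge of the Gpr84 window, a site in and beside Nfe2, a gene of the erythroid and megakaryocyte lineages, was called for all 3 proteins. This site, chr15:103258255-103258689, was in 10 of 12 replicate lists and all 6 pooled lists. Its regions were joined as a chain and do not all overlap each other. The pooled HDAC3 region was chr15:103258310-103258456 without IL3 and chr15:103258537-103258689 with IL3. A count of 207 of 35997 merged pooled regions (0.575%) was in all 6, and 2 of them lay near the 10 genes. HDAC3 scored 90.2 and 51.4 without IL3 (ranks 32 of 1632 and 23 of 535). With IL3 it scored 74.0 and 32.5 (ranks 7 of 683 and 120 of 265), so replicate 2 with IL3 had it in the middle of its list. Its ranks of 20 of 3350 and 7 of 1208 in the pooled lists were the highest for HDAC3 in the 10 windows. STAT5A with IL3 scored 231.2 and 220.1 (ranks 728 of 13574 and 34 of 6288), LSD1 121.9 in replicate 2 without and 64.4 and 119.9 with IL3. The STAT5A region here was counted as gained, but replicate 2 without IL3 had a region 23 bp from it (47.5), and the pooled list without IL3 had one that overlapped it (37.7). STAT5A without IL3 replicate 1 had a region of score 60.2 at 50047 bp from Gpr84, just outside the window. The farthest region inside, at 49820 bp, belonged to this site. If the region of replicate 1 was on the same side of Gpr84, both replicates without IL3 had STAT5A close to the gained region. The signal without a specific antibody was not tested at the sites in all 6 lists, since the input library was not used here.

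A neighbouring site, chr15:103260098-103260327, 1695 bp beyond Nfe2, was called for STAT5A with IL3 at 346.8 and 105.0 (ranks 325 of 13574 and 245 of 6288) and for LSD1 with IL3 in replicate 1 (29.7). No library without IL3 had a region at it. The nearest STAT5A region without IL3 was 1438 bp away. The third gained STAT5A region of the window, chr15:103339710-103340018 in Zfp385a, scored 108.1 and 45.0, and a region of replicate 2 without IL3 lay 46 bp from it. When STAT5A regions within 200 bp were counted as 1, an alternative chosen after seeing the data, the gained regions near the 10 genes fell from 6 to 4.

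**Figure D2:**
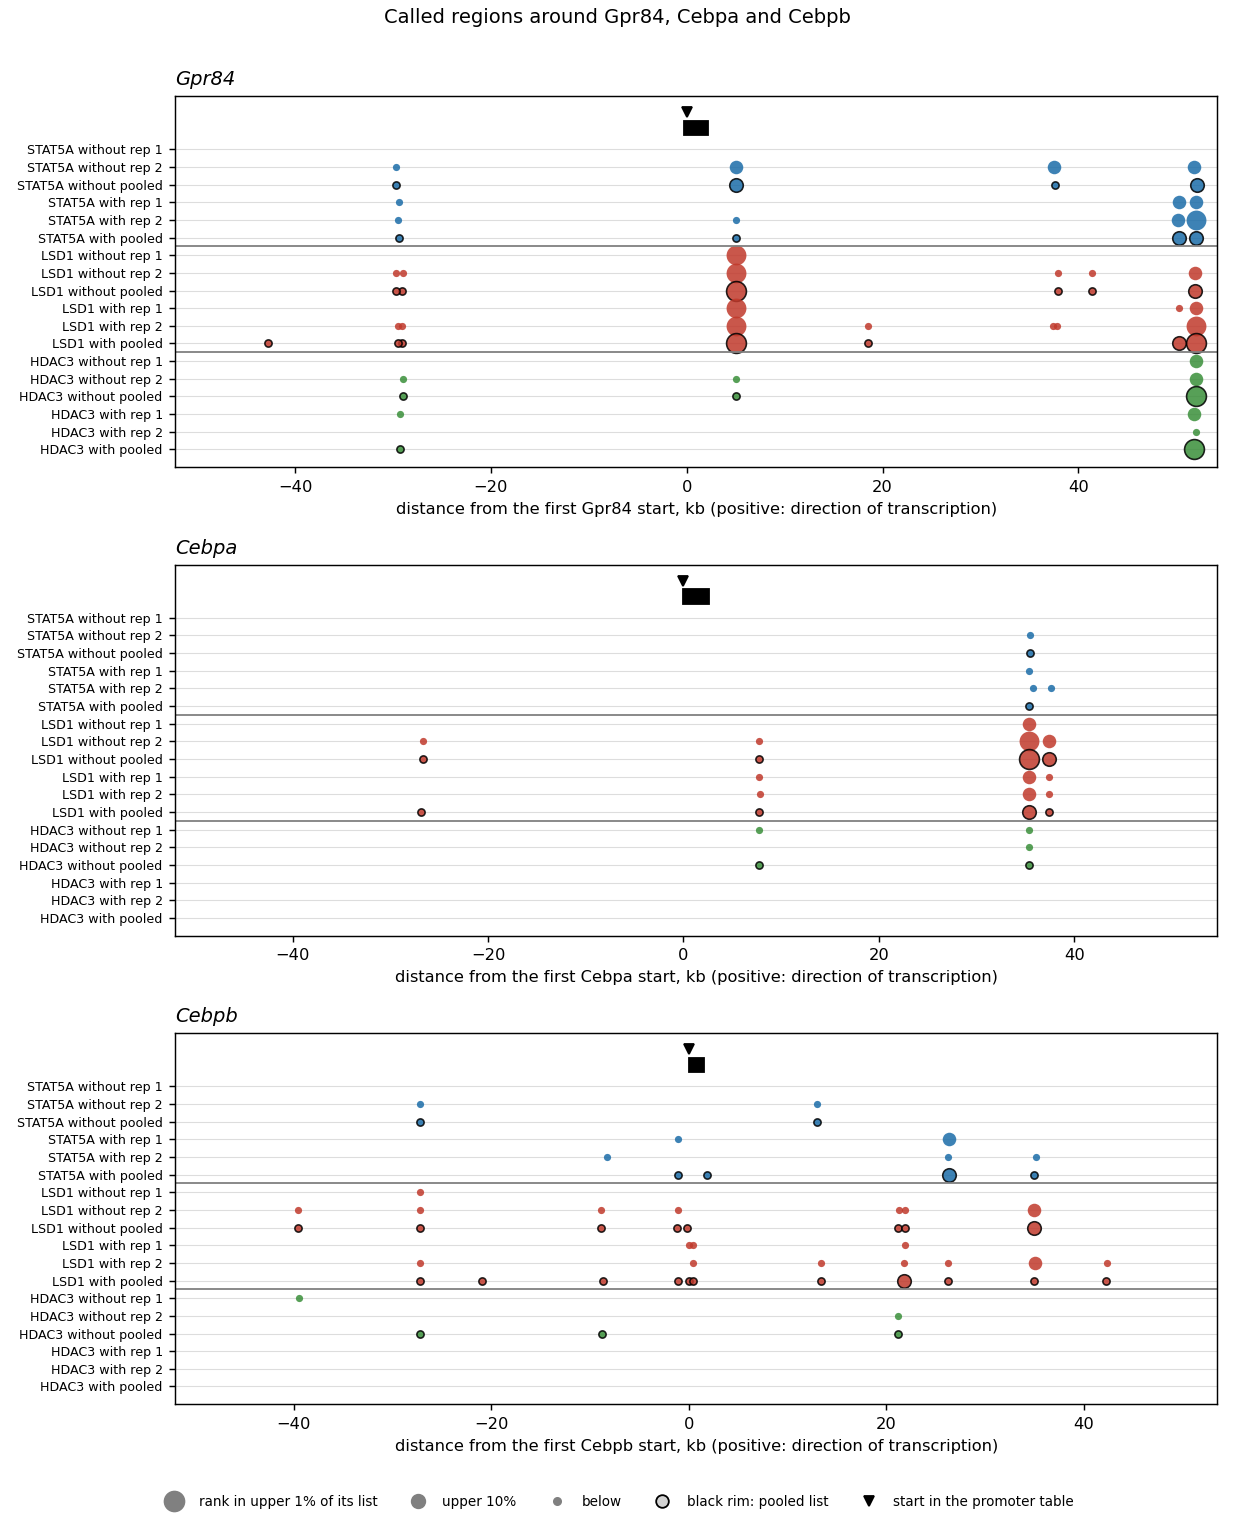
Positions of called regions around Gpr84, Cebpa and Cebpb in each of 18 lists (rows, 12 libraries and 6 pooled lists), as distance in kb from the gene's first start in the direction of transcription, with the gene's bounds as a black bar. Circle size gives the rank of a region in its list (upper 1%, upper 10%, below), and the site 5 kb from the Gpr84 start is in the upper 1% of every LSD1 list.

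Cpa3, Hdc and Mpo encode enzymes of granules or their mediators. Cpa3 encodes mast cell carboxypeptidase A and had 1 site, inside the gene, called for LSD1 without IL3 in replicate 2 (24.4, rank 9130 of 15786). Hdc, whose product makes histamine from histidine, had 5 sites, all inside the gene and all of LSD1. At chr2:126615398-126615611, LSD1 was called in replicate 2 of both conditions, at 24.4 without and 26.6 with IL3, and the 4 others were called without IL3 only, 3 of them in replicate 2 and 1 in the pooled list. Neither STAT5A nor HDAC3 was called within 50 kb of Cpa3 or Hdc in any list. A STAT5A region with IL3 (replicate 1, 41.0) lay at 50159 bp from Hdc, just outside.

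Mpo encodes myeloperoxidase, the granule enzyme of neutrophils and their precursors. Its 10 sites included 3 where all proteins were called. The one nearest to the gene, chr11:87790046-87790486, lay 3298 bp from its bounds on the side of its start and was called in LSD1 without IL3 replicate 2 (42.7), HDAC3 without IL3 replicate 1 (39.5) and STAT5A without IL3 replicate 1 (32.8). With IL3 only the pooled LSD1 list had a region there, at 11.6 (rank 13108 of 17092). At the start, the site chr11:87793381-87793600 was called for LSD1 in replicate 2 without IL3 (21.3) and for STAT5A in the pooled list without IL3 (16.8). At these 2 sites every replicate call was without IL3, and no protein was called in more than 1 replicate.

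The other 2 sites with all proteins were 41.8 and 44.0 kb from Mpo and nearer to Tspoap1, Supt4a and the microRNA gene Mir142b. The site chr11:87751678-87751948 was in all 6 pooled lists. There LSD1 scored 70.1 without and 66.6 with IL3, both in replicate 2, and HDAC3 scored 56.4 without (rank 207 of 1632) and 24.7 with IL3 (rank 151 of 683), both in replicate 1, while STAT5A was called in replicate 2 without IL3 (30.6). HDAC3 ranked 51 of 1208 in the pooled list with IL3. A further HDAC3 region of that list lay 77 bp from Mir142b (17.6, rank 346), and neither replicate had it. The gained LSD1 region of this window, chr11:87760339-87760571 in Tspoap1, scored 27.2 and 29.3 with IL3, and the pooled list without IL3 had a region that overlapped it (25.4). The change of this region rests on the replicate lists alone.

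Mitf encodes a bHLH transcription factor required for mast cells and melanocytes. It had 15 sites, 14 inside the gene, of which 10 were called for STAT5A with IL3 replicate 1 as well as 1 before the gene. Only 1 was called in both STAT5A replicates with IL3, chr6:97898177-97898472, at 37.3 and 30.0 (ranks 6410 of 13574 and 3985 of 6288). The highest-scoring STAT5A regions were at chr6:97917401-97917573 (104.4, rank 2155) and chr6:98015910-98016082 (97.0, rank 2346), both in replicate 1 alone. No replicate without IL3 had a STAT5A region near Mitf. Most STAT5A calls at Mitf were therefore those of the longest STAT5A list.

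LSD1 at Mitf was highest at chr6:97887926-97888200, inside the gene, where all 3 proteins were called. LSD1 scored 115.8 without IL3 in replicate 2 (rank 264 of 15786) and 34.7 and 37.3 with IL3 (ranks 704 of 6479 and 1944 of 11570). HDAC3 was called in replicate 1 without IL3 (50.8, rank 301 of 1632) and in no library with IL3. STAT5A scored 70.9 in replicate 1 with IL3, and 16.8 in the pooled list without it. LSD1 without IL3 replicate 1 had no region there. A second LSD1 site, chr6:97995876-97996110, was called in 3 libraries, at 42.7 without and 19.8 and 18.7 with IL3, 4.2 kb beyond the third Mitf start of the table.

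**Figure D3:**
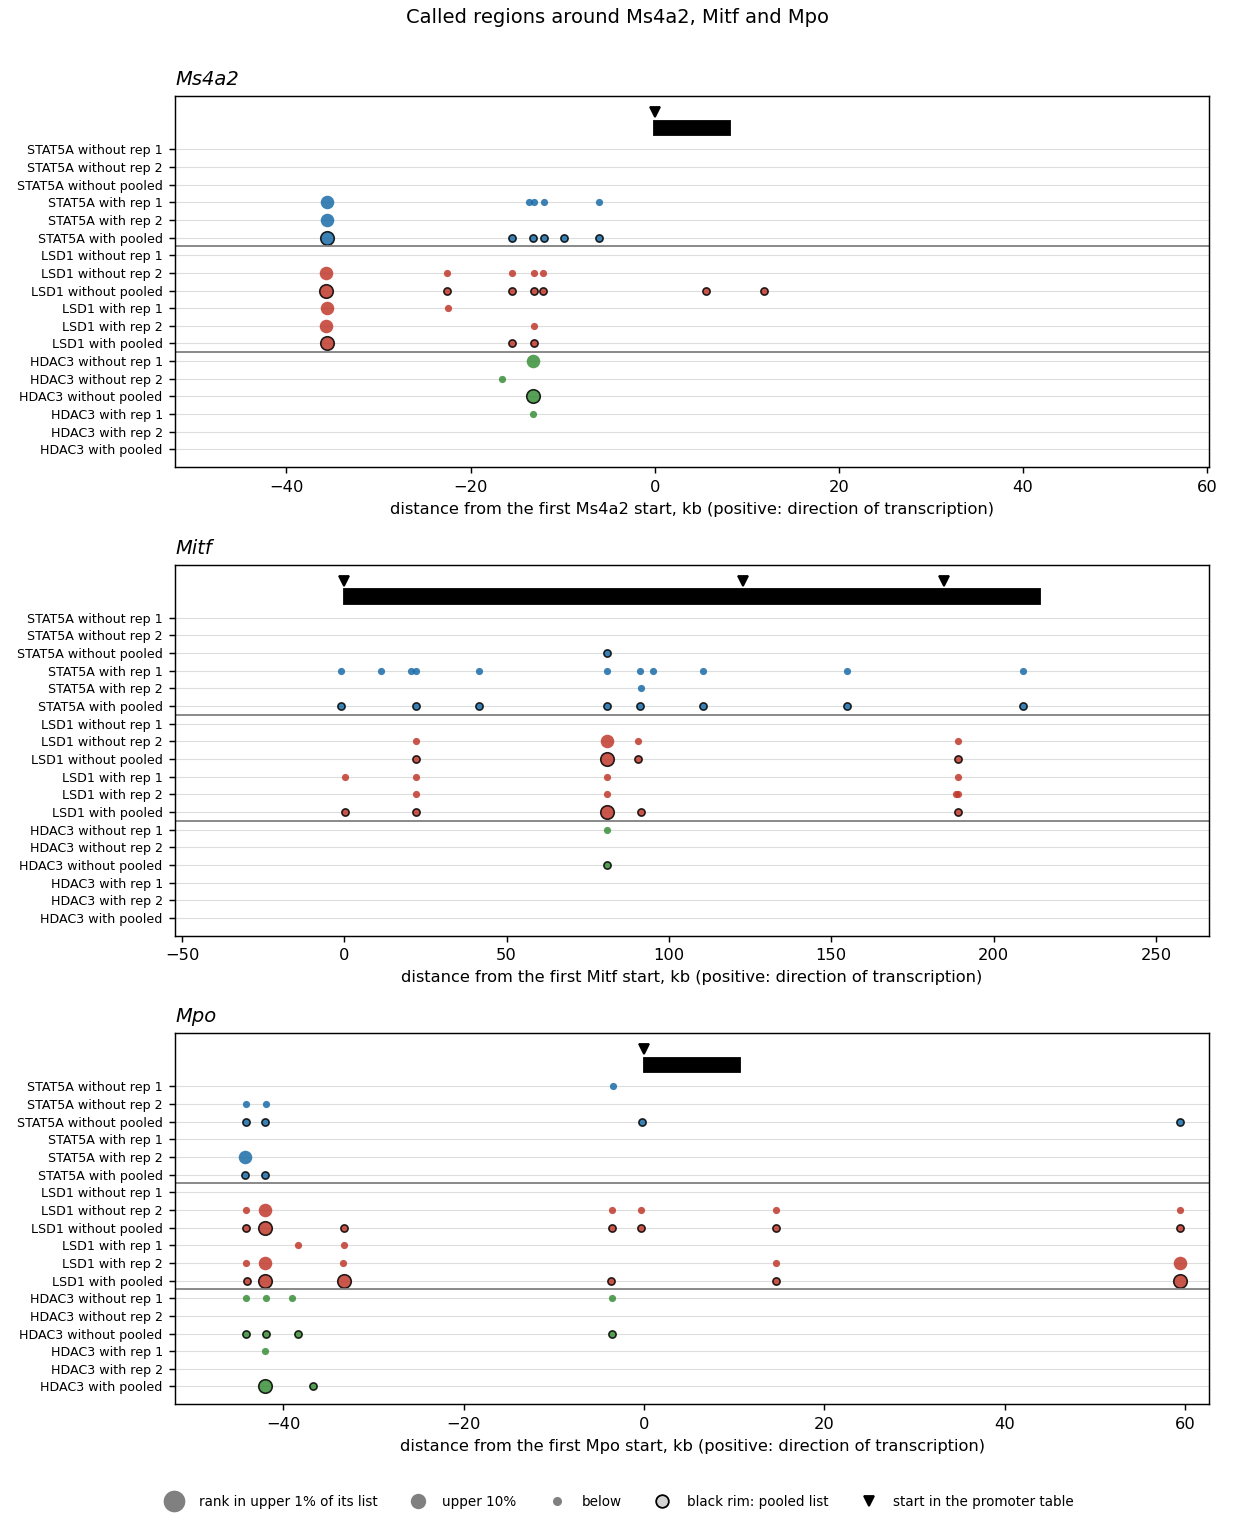
Positions of called regions around Ms4a2, Mitf and Mpo in each of 18 lists, drawn as distance in kb from the gene's first start in the direction of transcription, with black triangles for the starts. STAT5A with IL3 replicate 1 has 11 regions around Mitf, and the other STAT5A libraries have 1 or 0.

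Cebpa encodes C/EBPα, which commits progenitors to the granulocyte and macrophage lineages. No region lay in the gene or at its start. The leading site was 35.4 kb beyond the start, at chr7:35154509-35154845, in 8 of 12 replicate lists. The protein-coding gene nearest to it was Slc7a10, at 31250 bp, against 32581 bp for the bounds of Cebpa. LSD1 was called there in all 4 libraries, at 136.1 and 137.1 without IL3 (ranks 56 of 1007 and 157 of 15786) and 61.9 and 77.3 with IL3 (ranks 136 of 6479 and 296 of 11570). HDAC3 was called in both replicates without IL3, at 33.8 and 29.4, and in neither with it, and the nearest HDAC3 region in a library with IL3 was 4967319 bp away. The libraries of HDAC3 with IL3 held 683 and 265 regions over the whole genome, and how far this sets that distance was not tested. STAT5A was called there in replicate 2 without IL3 (20.4) and replicate 1 with IL3 (26.1). LSD1 was thus called at this site in both conditions, and HDAC3 in the condition without IL3.

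A second site at Cebpa, chr7:35126923-35127170, 5.0 kb beyond the gene's bounds, was called for LSD1 in 3 libraries (27.4 without, 14.9 and 24.0 with IL3) and for HDAC3 in replicate 1 without IL3 (56.4, rank 207 of 1632). STAT5A was not called at it. At chr7:35156556-35156757, 37.4 kb beyond the start, LSD1 was called in the same 3 libraries at 57.9 without and 24.8 and 34.6 with IL3. This site too was nearer to Slc7a10 (29338 bp) than to Cebpa (34628 bp). STAT5A with IL3 replicate 2 had regions of 40 and 30 next to the leading site and to this one, and no other library had them.

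Cebpb encodes C/EBPβ, which acts in macrophages and in the granulocyte response to infection, and with 16 sites it had the most. In replicate 1 and in the pooled list with IL3, its highest-scoring STAT5A region was 26.2 kb beyond its start, at chr2:167715090-167715310, with 175.3 and 45.0 in the replicates with IL3 (ranks 1132 of 13574 and 1509 of 6288). No library without IL3 had a STAT5A region there, and the nearest was 13083 bp away. LSD1 was called there with IL3 in replicate 2 (34.6) and in no library without IL3. At chr2:167723752-167724181, 35.1 kb beyond the start, STAT5A with IL3 replicate 2 scored 55.0 and LSD1 scored 57.9 without and 50.6 with IL3, all in replicate 2. These sites were in a stretch with no other protein-coding gene nearer than Cebpb.

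LSD1 was also called at the Cebpb start. Within the gene, chr2:167689191-167689432 was gained, with 22.3 and 32.0 in the replicates with IL3 (ranks 2293 of 6479 and 2943 of 11570), and the nearest LSD1 region in a replicate without IL3 was 1290 bp away. The pooled list without IL3 had a region 345 bp from it, over the promoter, at 25.4. Upstream, the site chr2:167687675-167687901 was called for LSD1 without IL3 replicate 2 (48.8, rank 2219 of 15786) and for STAT5A with IL3 replicate 1 (22.4). The pooled lists with IL3 had both proteins there, LSD1 at 21.8 (rank 3515 of 17092) and STAT5A at 23.5 (rank 7305 of 15546). HDAC3 near Cebpb was called without IL3 only, and its 1 region in each replicate lay at different places, 39.4 kb from the gene's bounds in replicate 1 (33.8) and 19.6 kb on the other side in replicate 2 (22.0). The HDAC3 replicates thus had equal numbers at Cebpb and different positions. A site 46 bp from Tmem189, chr2:167661590-167661797, was called for LSD1 in both replicates without IL3 (90.7 and 21.3), in replicate 2 with IL3 (26.6) and for STAT5A in replicate 2 without IL3 (30.6). HDAC3 was called at that site in the pooled list without IL3 (17.8, rank 1563 of 3350) and in no replicate. An LSD1 region with IL3 at 50205 bp (26.6) was the nearest outside the window.

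Other genes of these lineages, from lists chosen with earlier results of these data known, were counted in the same way. STAT5A with IL3 was called near 14 of 19 other mast cell genes (73.7%) and 22 of 25 other myeloid genes (88.0%), LSD1 with IL3 near 14 and 23, and HDAC3 with IL3 near 8 and 3. Over all genes these shares were 61.4%, 64.7% and 10.8%. Without IL3 the counts were 10 and 15 for STAT5A, 14 and 22 for LSD1, and 9 and 11 for HDAC3. All genes gave 40.9%, 63.0% and 24.4% there. More STAT5A regions in both replicates with IL3 than in either without were found at 7 of 19 mast cell genes (Cma1, Gata2, Lat2, Alox5, Ltc4s, Ndst2 and Lyn) and 6 of 25 myeloid genes (Csf1r, Csf3r, Gfi1, Fcgr3, Ms4a3 and Ltf). These are 36.8% and 24.0%, against 18.0% of all genes. Neighbours share regions: the top STAT5A region of Ms4a3 is the one described for Ms4a2. Of 12 B lineage genes, 10 had STAT5A with IL3 within 50 kb, 10 LSD1 and 0 HDAC3, and 2 had HDAC3 without IL3. Of 6 T cell genes, 5 had HDAC3 without and 0 with IL3. More HDAC3 regions in both replicates without IL3 than in either with it were found at 3 of these 6 (Cd3e, Cd3d and Cd3g, which are neighbours) and at 1 of 19 mast cell genes, Gata2. Of all genes 1.62% were called so.

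Among these other genes, and apart from the region that Ms4a3 shares with Ms4a2, the highest STAT5A scores with IL3 were near Cebpd, a C/EBP family gene (299.1, rank 136 of 15546), Slc18a2, which encodes the transporter that loads monoamines into granules (260.6), Alox5, which makes leukotriene precursors (239.3), and Gata2, a factor of mast cells and progenitors (164.5). In that order they lay 23784, 8238, 0 and 41506 bp from the gene's bounds. For LSD1 the leading regions without IL3 were near Gfi1, a repressor that recruits LSD1 (261.2, rank 15 of 16890), Cebpe, a factor of late granulocytes (246.0, rank 22), and Lyl1 (149.6, rank 90). Those 3 were 33484, 4233 and 0 bp from the bounds. With IL3, Cebpe ranked 20, Lyl1 64 and Gfi1 99 of 17092. HDAC3 without IL3 was highest near Gata2 (57.8, rank 28 of 3350), 47104 bp from its bounds, and Elane (44.5, rank 78), 48982 bp from its bounds. With IL3 it was highest near Lyl1 (33.4, rank 31 of 1208) and Slc18a2 (31.6, rank 39).

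**Figure D4:**
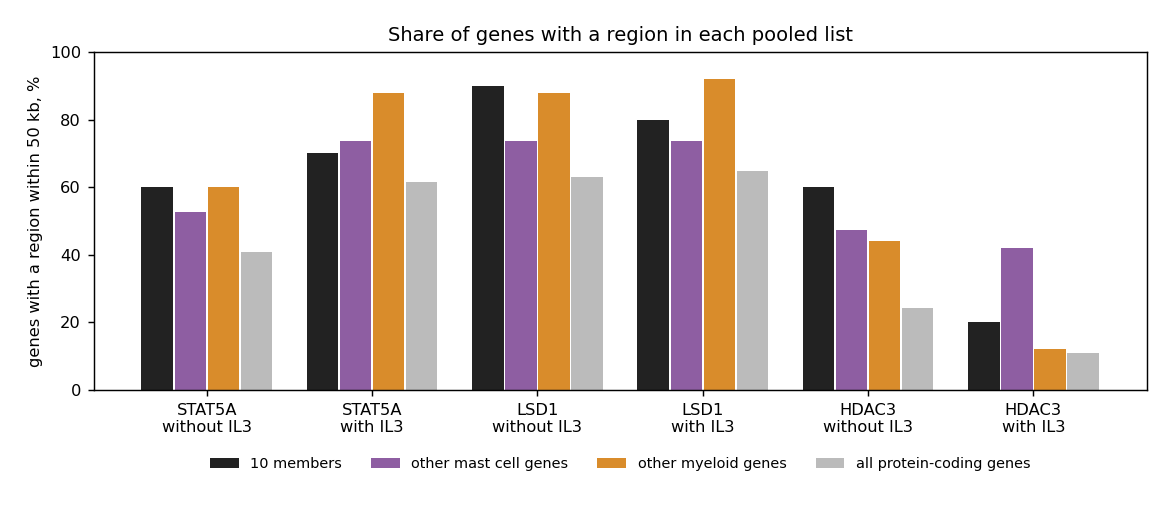
Share of genes (%) with a called region inside or within 50 kb in each pooled list, for the 10 genes, 19 other mast cell genes, 25 other myeloid genes and all 21887 protein-coding genes. For HDAC3 with IL3 the shares are 20%, 42.1%, 12% and 10.8%, in that order.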

How the data were processed

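ChIP-seq libraries of STAT5A, LSD1 and HDAC3 were made by the authors. Trimmomatic 0.30, Bowtie2 2.1.0, Picard 1.92, HOMER 4.8 and mm10 are named, with no role or setting, per the submitters' processing notes. For the caller, neither control nor threshold is given in the sources used here. The authors deposited regions of fixed width per list with a score whose definition is not given, so scores were used to rank and describe regions within a list, and scores of different lists were not tested against each other. Lists exist per library and per pooled library of a group. Read depth is unknown, and the number of regions per list, which is printed instead, does not measure it. The input library was not used here.

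The tools were Python 3.11.15, pandas 2.3.3, numpy 2.4.6, scipy 1.17.1 and, for plots, matplotlib 3.10.9. Regions were limited to assembled chromosomes (ranks are over whole lists, and tied scores share the higher rank), and called overlapping at 1 bp or more. Genes and starts are from RefSeq tables of GRCm38.p6, and all 10 genes matched, as did 19 of 20 other mast cell and 25 of 25 other myeloid genes. The members and lists were chosen with earlier results of these data known. All 10 genes are named, other genes only where nearer to a site or leading in their list. A gene's region numbers in the 2 conditions were tested by exact permutation (two-sided), and shares have 95% Wilson intervals. Regions are not independent replicates. On simulated data, 120 of 120 gained and 40 of 40 lost regions and 200 of 200 overlaps were recovered. Each planted region was in both replicates with a small shift, so full recovery was fixed by design and checks the code alone. Missed calls and close neighbours were not simulated. Alternatives were other windows, overlap rules and list lengths, pooled lists, leaving out sites in all 6 lists or each replicate, and pairing by replicate number.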

Additional observations from a re-analysis of the deposited data

How the results depend on the processing

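The calls rest on 2 lists per group of unequal length, and read depth is unknown. Of 98 recomputed values without a library left out, 70 stayed within 1.5 times, or the interval, of the value reported and 28 did not. The cause was not tested.

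With a 10 kb window, gained regions numbered 1 for STAT5A and 1 for LSD1, lost HDAC3 regions 0, and genes with more HDAC3 without IL3 0. The share of STAT5A regions on LSD1 was then 35.7% with and 100% without IL3, and on HDAC3 with IL3 it was 0%. These shares rest on fewer regions than the 28 with and 15 without IL3 of the 50 kb window. With 100 kb, gained regions were 10 and 4, genes with more STAT5A with IL3 6 and genes with more HDAC3 without IL3 1. In the upper 50% of each list by score, genes with more STAT5A with IL3 were 1, genes with more HDAC3 without IL3 1 and lost HDAC3 regions 0. With lists cut to the length of the shortest, gained regions were 1 for STAT5A and 0 for LSD1, lost HDAC3 regions 0, and genes with more STAT5A with IL3 and with more HDAC3 without IL3 0 and 0. From pooled lists, in 1 condition and not the other, 22 STAT5A, 12 LSD1 and 3 HDAC3 regions were gained and 9, 19 and 13 lost.

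The labels do not say that a replicate number marks a shared culture. With the replicate block, counting genes higher in both pairs of the same number, 4 genes had more STAT5A with IL3 and 1 without, 1 had more LSD1 with IL3, and the other 3 counts were the same.

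With 1 library left out, gained regions ranged from 6 to 23 for STAT5A, 2 to 10 for LSD1 and 0 to 2 for HDAC3, and lost regions from 0 to 8, 0 to 22 and 1 to 7. The share of STAT5A regions on LSD1 ranged from 25% to 66.7% with and 20% to 100% without IL3, and on HDAC3 from 0% to 10.7% and 20% to 100%. Genes with more STAT5A with IL3 ranged from 2 to 5 and without IL3 from 0 to 1, with more LSD1 with IL3 from 0 to 6 and without IL3 from 0 to 6, and with more HDAC3 without IL3 from 2 to 4, while those with more HDAC3 with IL3 stayed at 0.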
